A study of Mus musculus with 106 samples.

Results

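Liver of Foxa2-KO mice gained accessible chromatin at 82561 regions when GW4064 was compared with its vehicle, out of 266795 regions in the 4 ATAC-seq lists of the series. The members are all regions of the deposited list for GW4064 over vehicle in Foxa2-KO liver, and no region was left out. The labels give 3 GW4064 and 3 vehicle samples, while the series text speaks of 2 replicates, and which samples entered the list is not given in the sources used here. The study treated Foxa2-KO and WT mice with ligands of nuclear receptors and profiled liver by ATAC-seq, ChIP-seq and RNA-seq. The lists used beside this one are those of WT liver with GW4064 (3 samples against 3) and with GW3965 or T09 (2 against 2 each), each over its own vehicle, so no control sample is shared. All of these mice were 8 to 12 weeks old, and liver was taken 4 h after the ligand or vehicle, given by oral gavage in the sample labels and by injection in the series text. The ATAC labels give the genotype as Foxa2-KO without further detail, and other samples of the series spell it out as Foxa2loxP/loxP;Alfp.Cre, a deletion that the vehicle-treated Foxa2-KO mice carry too. Alfp.Cre is active in the hepatocyte and cholangiocyte lineages, so other liver cells keep an intact Foxa2 gene. Because each comparison is deposited as 1 list, no value per animal, no spread between replicates and no test between genotypes can be given, and the sequencing depth is unknown. The fold (GW4064 over vehicle) and q of each region are the authors' own, and everything else was computed from the positions. The samples are bulk tissue, in which a change in the share of a cell type and a change within its cells cannot be told apart.

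GW4064 is a synthetic agonist of FXR (encoded by Nr1h4), the nuclear receptor for bile acids, while GW3965 and T09 are agonists of LXR, the receptor for oxysterols. In liver, ligand-bound FXR represses bile acid synthesis, partly through the corepressor SHP (Nr0b2), and raises export through the bile salt pump (Abcb11) and the basolateral transporter whose beta subunit is encoded by Slc51b. Foxa2 is a forkhead pioneer factor, able to bind sites in closed chromatin of hepatocytes. ATAC-seq measures how readily a transposase enters chromatin, so a gained region is a stretch that was entered more often with GW4064 than with vehicle.

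Genes of the acute phase response, mostly those of plasma proteins that hepatocytes secrete in inflammation, were the most covered of the gene lists in the Foxa2-KO regions. The start-site windows (250 bp before to 50 bp after, RefSeq, GRCm38.p6, the assembly of mm10) of 6 of the 7 covered members and of 2 other covered genes (C3 and Socs3) are printed here to show what the gained regions span, and the window of the other member, Hp, was not analysed here. Capitals mark TTGCNNAA, a short form of the C/EBP site, and TTCNNNGAA, the core of a STAT site, each searched on both strands. C/EBP and STAT3 factors are the textbook activators of this gene class. The serum amyloid genes Saa2 (chr7:46751583-46751882, + strand) and Saa1 (chr7:46742931-46743230, - strand) come first, with 287 of 300 bases in common between their windows. The orosomucoid gene Orm3 (chr4:63355908-63356207, + strand), the metallothionein gene Mt2 (chr8:94172368-94172667, + strand), the complement gene C3 (chr17:57228087-57228386, - strand) and the hemopexin gene Hpx (chr7:105600067-105600366, - strand) follow. The last are Itih4, an inter-alpha-trypsin inhibitor heavy chain (chr14:30886226-30886525, + strand), and Socs3, the feedback inhibitor of IL-6 signalling (chr11:117969317-117969616, - strand).
Saa2: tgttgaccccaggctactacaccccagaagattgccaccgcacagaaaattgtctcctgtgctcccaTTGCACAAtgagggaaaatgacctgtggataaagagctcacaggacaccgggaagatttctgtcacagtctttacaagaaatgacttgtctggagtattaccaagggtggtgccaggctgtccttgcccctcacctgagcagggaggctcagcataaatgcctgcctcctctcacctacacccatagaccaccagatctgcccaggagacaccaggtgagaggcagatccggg
Saa1: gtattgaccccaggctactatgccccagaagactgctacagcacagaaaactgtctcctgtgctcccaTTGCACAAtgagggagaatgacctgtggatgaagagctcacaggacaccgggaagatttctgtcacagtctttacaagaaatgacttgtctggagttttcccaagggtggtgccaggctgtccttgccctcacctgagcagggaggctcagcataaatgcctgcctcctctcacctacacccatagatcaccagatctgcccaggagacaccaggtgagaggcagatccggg
Orm3: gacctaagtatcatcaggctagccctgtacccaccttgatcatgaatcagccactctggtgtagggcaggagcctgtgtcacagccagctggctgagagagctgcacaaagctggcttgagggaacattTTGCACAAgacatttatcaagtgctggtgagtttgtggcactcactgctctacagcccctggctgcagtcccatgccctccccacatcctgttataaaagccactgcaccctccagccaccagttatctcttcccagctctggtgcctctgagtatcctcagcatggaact
Mt2: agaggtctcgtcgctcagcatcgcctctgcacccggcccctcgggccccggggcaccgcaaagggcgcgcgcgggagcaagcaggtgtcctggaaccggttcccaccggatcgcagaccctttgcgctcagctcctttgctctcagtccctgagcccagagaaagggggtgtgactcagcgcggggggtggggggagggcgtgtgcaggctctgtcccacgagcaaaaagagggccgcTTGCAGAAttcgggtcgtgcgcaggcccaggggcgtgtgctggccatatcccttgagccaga
C3: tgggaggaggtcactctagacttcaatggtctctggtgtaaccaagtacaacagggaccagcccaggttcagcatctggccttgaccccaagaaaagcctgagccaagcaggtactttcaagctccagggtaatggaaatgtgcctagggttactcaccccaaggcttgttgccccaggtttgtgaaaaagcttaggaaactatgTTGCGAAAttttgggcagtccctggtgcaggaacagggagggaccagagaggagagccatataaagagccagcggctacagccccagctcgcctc
Hpx: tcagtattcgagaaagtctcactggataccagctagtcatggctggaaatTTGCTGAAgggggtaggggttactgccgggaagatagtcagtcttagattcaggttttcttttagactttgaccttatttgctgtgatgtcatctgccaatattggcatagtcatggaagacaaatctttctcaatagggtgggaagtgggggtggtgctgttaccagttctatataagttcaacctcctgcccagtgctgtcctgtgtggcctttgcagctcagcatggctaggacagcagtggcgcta
Itih4: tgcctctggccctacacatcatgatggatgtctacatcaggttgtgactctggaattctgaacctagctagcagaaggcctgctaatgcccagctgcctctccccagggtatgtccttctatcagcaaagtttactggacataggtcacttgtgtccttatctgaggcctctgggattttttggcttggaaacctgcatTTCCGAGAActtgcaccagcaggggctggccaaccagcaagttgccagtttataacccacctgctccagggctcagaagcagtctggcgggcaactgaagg
Socs3: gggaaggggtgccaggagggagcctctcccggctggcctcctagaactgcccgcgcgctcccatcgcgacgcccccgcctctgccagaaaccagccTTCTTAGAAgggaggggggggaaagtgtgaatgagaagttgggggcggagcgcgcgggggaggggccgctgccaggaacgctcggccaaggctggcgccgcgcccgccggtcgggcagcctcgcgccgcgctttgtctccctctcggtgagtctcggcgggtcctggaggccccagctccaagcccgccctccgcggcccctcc

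The windows of Saa2, Orm3, Mt2, C3, Itih4 and Socs3 lay wholly inside gained regions (100% of their bases), and those of Saa1 and Hpx lay outside them (0%). TTGCNNAA was found in 5 of the 6 covered acute phase genes with a window and in 9 of the 17 list members with one, against 10.1% of 17491 windows of protein-coding genes. Over all covered genes with a window the share was 9.41% (27 of 287), near that of all windows. The 5 covered members with TTGCNNAA were Saa2, Saa1, Orm3, Mt2 and Hpx. The windows of Saa1 and Saa2 are near copies, so their matches are not separate cases. The matches of Saa1 and Hpx lay outside gained regions. TTCNNNGAA was in 1 of the 6 covered members and 3 of the 17, against 7.78% of all windows and 6.27% of covered genes. The forkhead letters TGTTTNC were in 0 of the 6 and 1 of the 17, against 18.4% of all windows, and the NF-kB letters GGGA and TTTCC with 1 base between them were in 0 of the 17 and 0.389% of all windows. The FXR inverted repeat, GGTCA and TGACC with 1 base between them, was in 0 of the 287 covered genes' windows and in 5 of all 17491. The single receptor motif AGGTCA, which many nuclear receptors share, was in 4 of the 6 covered members and 5 of the 17, against 14.5% of all windows and 15.7% of covered genes. These are matches of letters in a window, for motifs chosen after their values were seen, and do not show binding.

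Most gained regions were short, and the widest had the smallest folds. The median width was 132 bp, 25% were 55 bp or less, 10% were 488 bp or more, and 11288 regions (13.7%) were 20 bp or less. Only 2766 regions (3.35%) were 1 kb or wider, yet they held 27.6% of the total length of 19.4 Mb. In WT liver 60528 regions had a median width of 150 bp and 4699 (7.76%) were 1 kb or wider, holding 43.5% of 20.8 Mb. The deposited fold in Foxa2-KO liver had a median of 3.31 and ran between 1.04 and 1379. It was 5.97 in the median for regions under 50 bp, 2.52 between 150 and 500 bp, 1.38 between 1000 and 2000 bp and 1.12 at 5000 bp or more. The smallest deposited fold fell with width too, at 1.86, 1.33, 1.11 and 1.04 in the same classes. The list holds only regions within a limit of q, and narrow regions of low fold are absent from it. How far that limit alone makes the fold fall with width was not tested, because regions outside the limit are not listed. Most of the broad gains over gene bodies described next had deposited folds not far above 1.

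**Figure D1:**
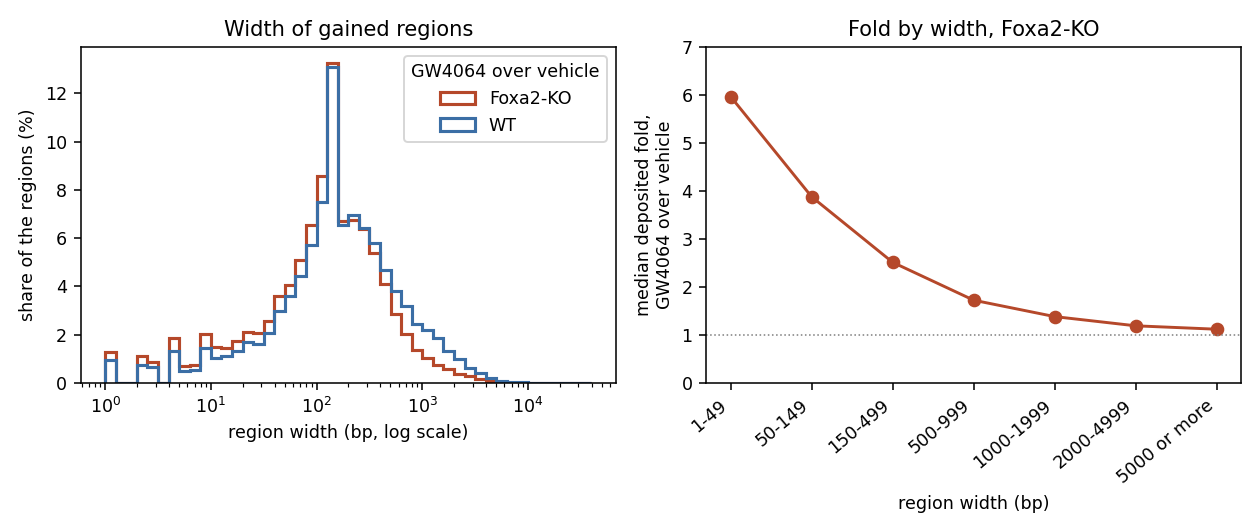
Left, widths of the regions gained with GW4064 in Foxa2-KO and WT liver (bp, log scale) as a share of each list (82561 and 60528 regions). Right, median deposited fold of the Foxa2-KO regions by width, with a dotted line at 1. The Foxa2-KO list has fewer regions above 500 bp (9.68% against 17.3% in WT), and the median fold falls to 1.12 in the widest class. The smallest listed fold, not drawn, also falls, from 1.86 in the narrowest class to 1.04 in the widest.

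Wide gained regions mostly touched genes, and narrow ones did so less often. Of all Foxa2-KO regions, 46.9% touched the body of a protein-coding gene. By length, 53.2% of the regions lay in gene bodies, which make up 37.9% of the chromosomes' extent. The share touching a gene body was 44.4% for regions under 50 bp and 89.6% for those of 5000 bp or more, and it rises with width partly by construction. Regions within 1 kb of a start site made up 2.03% of regions and 10.1% of their length, and 43.6% of regions lay more than 10 kb from any protein-coding gene. In WT liver such regions made up 2.87% of regions and 11.1% of the length, and 40.6% of regions were more than 10 kb from any protein-coding gene. In both genotypes the regions near start sites were counted over their full width. Along genes of 2 kb or longer, the covered share was highest in the first kb upstream of the start, at 3.31% of bases in Foxa2-KO liver against 4.11% in WT liver. In the first kb past the end it was 1.99% in Foxa2-KO liver and 2.75% in WT liver. Inside the body the value depends on how genes are weighted. Around 45% of the gene's length, the share of all bases, which follows long genes, was 0.820% in Foxa2-KO liver and 1.01% in WT liver, and the mean per gene was 1.73% and 1.77% in the same order. In the last 10% of the body the mean per gene was 2.02% in Foxa2-KO liver, so by that measure the first kb past the end was no higher there, and 2.37% in WT liver. The start site itself lay in a gained region for 889 of 17491 genes (5.08%) in Foxa2-KO liver, against 1123 (6.42%) in WT liver, and 131 genes were common to both.

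**Figure D2:**
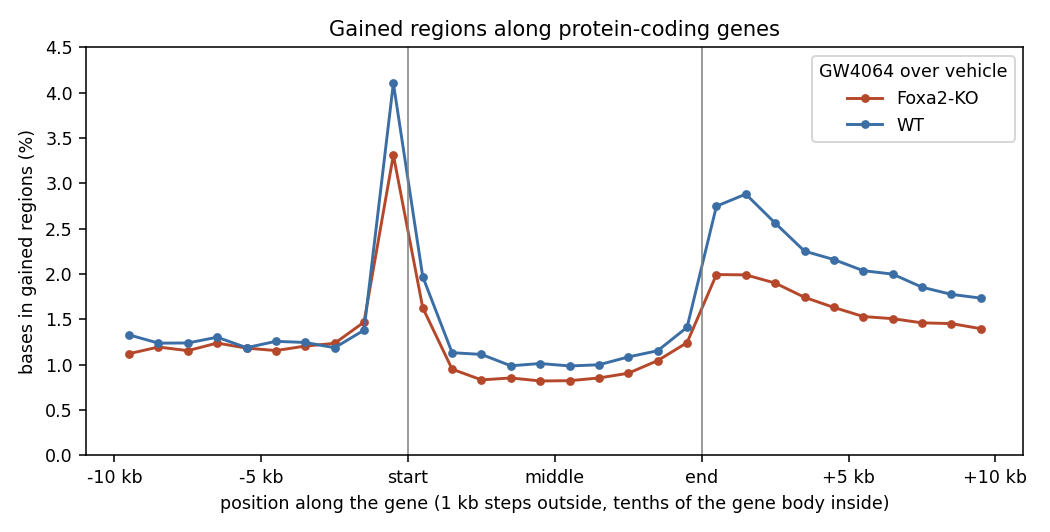
Percent of bases inside regions gained with GW4064 along protein-coding genes of 2 kb or longer, in 1 kb steps outside the gene and 10% steps of the gene body inside, for Foxa2-KO and WT liver. Inside the body, bases are pooled over genes, so long genes weigh more than outside it. Both curves are highest in the first kb upstream of the start (3.31% in Foxa2-KO, 4.11% in WT).

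The 10 regions with the smallest q lay in or beside Cyp3a25, Insig2, 1600014C10Rik, Hpx, Saa2 and Egfr. Of the first 10, 5 lay in or beside Cyp3a25, a cytochrome P450 of the CYP3A group, led by chr5:145973581-145977129 with a deposited fold of 3.26. The span from Cyp3a57 to Cyp3a59, in which 6 Cyp3a genes were counted, held 12 of the first 30 regions. The first 10 of these had deposited folds of 1.86 to 4.08. The cover was 64.0% for Cyp3a25 and 58.3% for Cyp3a11, against 78.9% and 90.9% in WT liver, while Cyp3a16 and Cyp3a57 were at 0% in both genotypes. These paralogs are alike in sequence, and how reads that fit several copies were placed is not given in the sources used here. The second region (deposited fold 2.74, chr1:121297561-121302665) lay 1687 bp beyond the end of Insig2, which encodes an endoplasmic reticulum protein that restrains SREBP processing. Insig2 itself was covered over 45.7% by 16 regions, against 41.2% in WT liver. The third region covered 1600014C10Rik whole (16394 bp, deposited fold 1.26). The same stretch also held the first entry of each of the 4 FXR ChIP lists, of both genotypes with GW4064 and with vehicle, in the order of each file. Each FXR list had 2 or 3 peaks there, and Foxa2 of WT liver had 6 peaks with GW4064 and 7 with vehicle. Hpx, the plasma heme carrier, held the fourth region (9044 bp, deposited fold 1.78) and Saa2 the fifth (3752 bp, deposited fold 2.66). The eighth lay in Egfr, the epidermal growth factor receptor (9968 bp, deposited fold 1.63). At Hpx, Saa2 and Egfr the WT list with GW4064 had no covered base in these regions.

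The widest regions ran over whole genes at low fold. C3, the central complement protein, lay inside the widest region of the list, at chr17:57200894-57229276 (28383 bp), with a deposited fold of 1.04, a q of 0.0329 and a place as late as entry 52560. Osgin1, an oxidative stress and growth inhibitor gene that FXR agonists induce, and its neighbour Necab2 shared the third widest (14753 bp, deposited fold 1.24, entry 16). Of this region's length, 100% lay in WT GW4064 regions, 97.3% in WT GW3965 regions and 99.9% in WT T09 regions, so the LXR agonist lists held it too. Xirp1, known for its actin-binding product of striated muscle, was covered over 97.7% by 2 regions with deposited folds averaging 1.11 per covered base. Slc25a47, which encodes a mitochondrial carrier of liver, was covered whole (11792 bp, deposited fold 1.18, entry 35), and the region ran into Wars. Crip2 and Gm30599 (11909 bp), Plxnb1 and Ccdc51 (12315 bp), and Mroh2a (12497 bp) had deposited folds of 1.12, 1.07 and 1.14. Of these genes, Crip2, Gm30599, Plxnb1, Ccdc51, Mroh2a and Osgin1 were also covered over 25% in WT liver, and C3, Xirp1 and Slc25a47 had no covered base there. Among genes covered over at least 25%, the most bases lay in St3gal1 (a sialyltransferase, 31605 bp), Zfpm1 (a cofactor of GATA factors, 31229 bp), C3 (24170 bp) and Cyp3a25 (20786 bp). Plxnb1, Trf, Cyp3a11, Klf13, 1600014C10Rik, Itih4, Insig2, Mroh2a, Mta1, Osgin1 and Trip10 followed, with 10114 to 15817 bp each.

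Gene bodies were then ranked by the share of their bases inside gained regions. In Foxa2-KO liver 364 of 21883 protein-coding genes (1.66%) were covered over at least 25% of their body, against 424 (1.94%) in WT liver with GW4064. With GW3965 and T09 in WT liver the shares were 2.26% and 1.54%. In Foxa2-KO liver a limit of 10% gave 905 genes (4.14%) and one of 50% gave 158 (0.722%). Genes with any covered base were common, at 48% in Foxa2-KO liver and, in WT liver, 43.8% with GW4064, 43.6% with GW3965 and 43.2% with T09. The covered genes were short, with a median length of 4482 bp against 17170 bp for all genes, and 5.59% of genes of 2 to 5 kb passed the 25% limit against 0.0933% of those of 30 kb or more. The deposited fold, averaged over the covered bases of a gene, had a median of 1.27 over the 364 genes (quartiles 1.16 and 1.43), and in 15 genes it was 2 or more. Counts of a list's members are therefore to be read against 1.66% and against gene length. No gene list was tested.

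**Figure D3:**
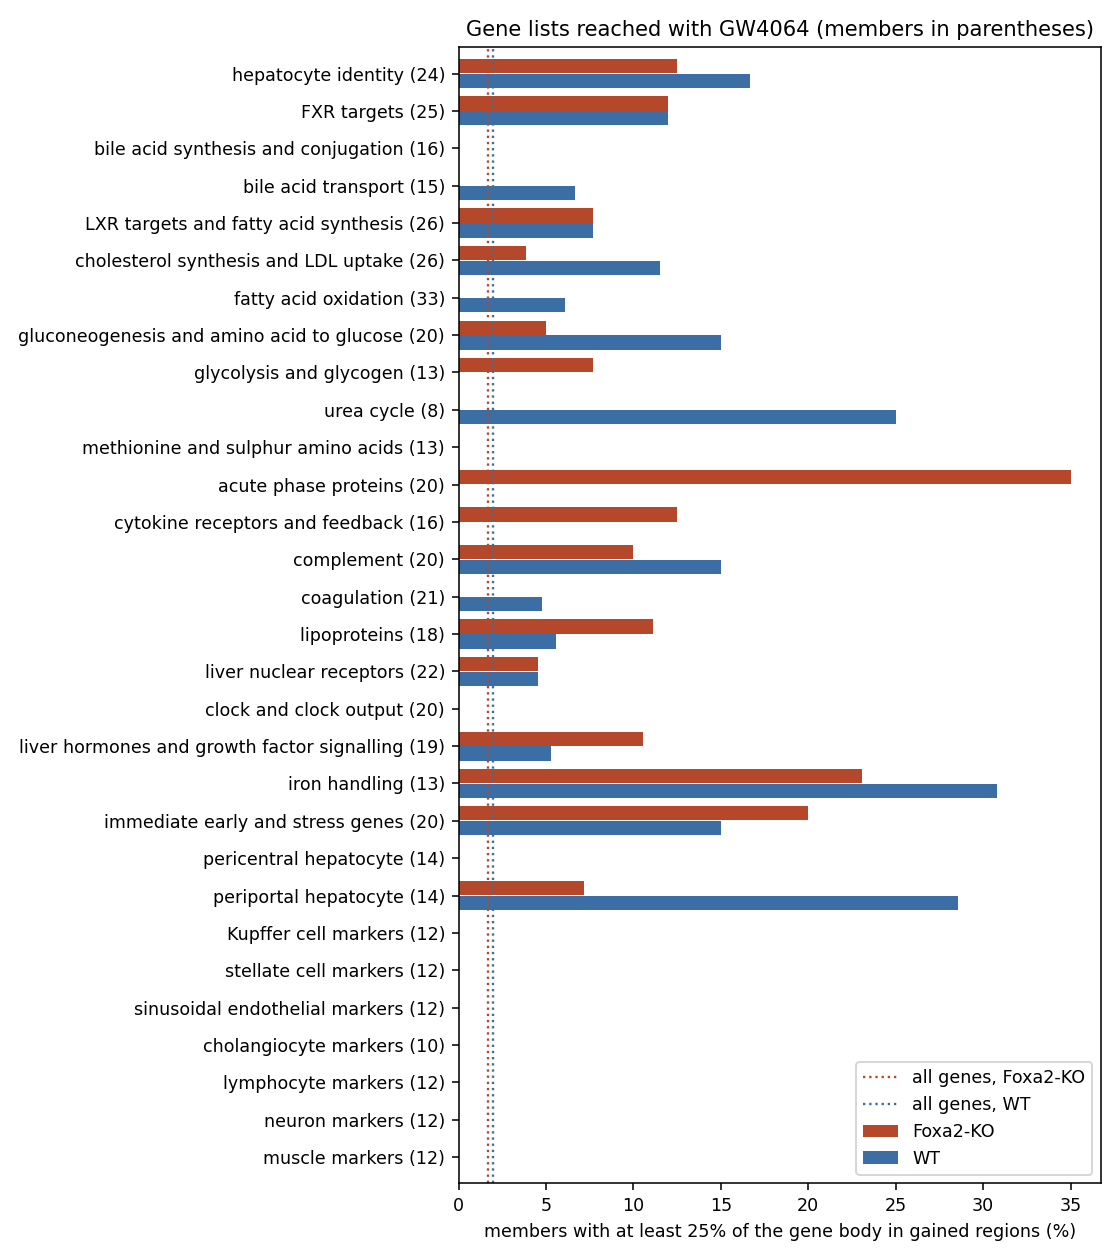
Percent of the members of each gene list with at least 25% of the gene body in regions gained with GW4064, Foxa2-KO above WT, with the number of members in parentheses and dotted lines at the share of all genes (1.66% in Foxa2-KO, 1.94% in WT). Acute phase proteins stand at 35% in Foxa2-KO and 0% in WT, and the bars of urea cycle and periportal hepatocyte genes are longer in WT.

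Acute phase genes were the list with the highest share, 7 of 20 members (35%) in Foxa2-KO liver against 0 of 20 in WT liver with GW4064 and 0 of 20 with either GW3965 or T09. Haptoglobin (Hp), which binds free hemoglobin, was covered whole by a region of 10622 bp that also took in 53.4% of Txnl4b. Mt2, a metal-binding stress protein, was covered whole, Itih4 over 84.3%, Hpx over 77.2%, Saa2 over 75.6%, Orm3 over 66.9% and Saa1 over 50.8%. All 7 had 0% in WT liver with GW4064, as did 58.8% of the 364 genes covered in Foxa2-KO liver. Hp had a deposited fold of 1.09, Orm3 of 1.18, Mt2 of 1.23, Saa1 of 1.48 and Saa2, per covered base, of 2.63, so the list joins weak and strong gains. Serpina3n, a protease inhibitor, had 15.3%, Orm2 6.62%, ceruloplasmin (Cp) 4.37% and Saa3 2.45%. The members Saa4, Orm1, Lcn2 (lipocalin 2), Crp, Apcs, Mt1 and Hamp (hepcidin) had no covered base in Foxa2-KO liver. The median length of the list's genes was 3523 bp, in the length class in which 5.59% of all genes were covered in Foxa2-KO liver. Only Saa2 of the 7 remained with regions of fold 2 or more, as did 15 genes of all. Saa1 with Saa2 and the Orm genes are near-identical copies, so which copy gained is uncertain.

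Cytokine signalling genes, feedback inhibitors included, were covered at single members. In the list of cytokine receptors and feedback genes, 2 of 16 passed 25% in Foxa2-KO liver against 0 of 16 in WT liver. These were Socs3 at 92.9% (4465 bp, deposited fold 1.19, entry 284) and Tnfrsf1a, the TNF receptor, at 43.9% (deposited fold 1.30). Il1r1, the IL-1 receptor, had 13.9% and the oncostatin M receptor Osmr 3.03%. Il6ra, Ifngr1, Socs1, Cish, Stat3, Nfkbia, Tnfaip3 and Zfp36 had no covered base in Foxa2-KO liver. In the complement list 2 of 20 members passed in Foxa2-KO liver, C3 and C8g (a chain of the membrane attack complex), both covered whole, against 3 of 20 in WT liver, C8g, Cfb and Mbl1. With regions of q 0.01 or less, 1 of 20 passed in Foxa2-KO liver. Cfb and Mbl1 were at 0% in Foxa2-KO liver and at 29.3% and 32.7% in WT liver. None of 21 coagulation genes passed in Foxa2-KO liver and 1 did in WT liver.

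Stress and hormone genes were also among the covered ones. Among 20 immediate early and stress genes, 4 passed in Foxa2-KO liver, against 3 in WT liver, and 1 (Hspa8) was common. With regions of q 0.01 or less, 1 of the 20 passed in Foxa2-KO liver. Junb, a subunit of AP-1, was covered whole (6841 bp, deposited fold 1.08), as was Gadd45g, and Gadd45a had 83.9%, with all 3 at 0% in WT liver. Hspa8, the constitutive heat shock protein, had 36.9% in Foxa2-KO liver and 32.1% in WT liver, while Hspa5 had 0% in Foxa2-KO liver and 36.1% in WT liver. Fos, Jun, Egr1, Myc and Atf3 had no covered base in Foxa2-KO liver. Of 19 liver hormone and growth factor genes, 2 passed in Foxa2-KO liver and 1 (Angptl8) in WT liver. Gdf15, a hormone of cell stress, was covered whole (deposited fold 1.10) and Fgf21, a hormone of fasting and nutrient stress, over 75.02% (deposited fold 1.26), with 0% for both in WT liver. A value of 0% in WT liver was common, at 58.8% of the 364 genes covered in Foxa2-KO liver. Egfr had 19.4% in Foxa2-KO liver and 0% in WT liver.

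**Figure D4:**
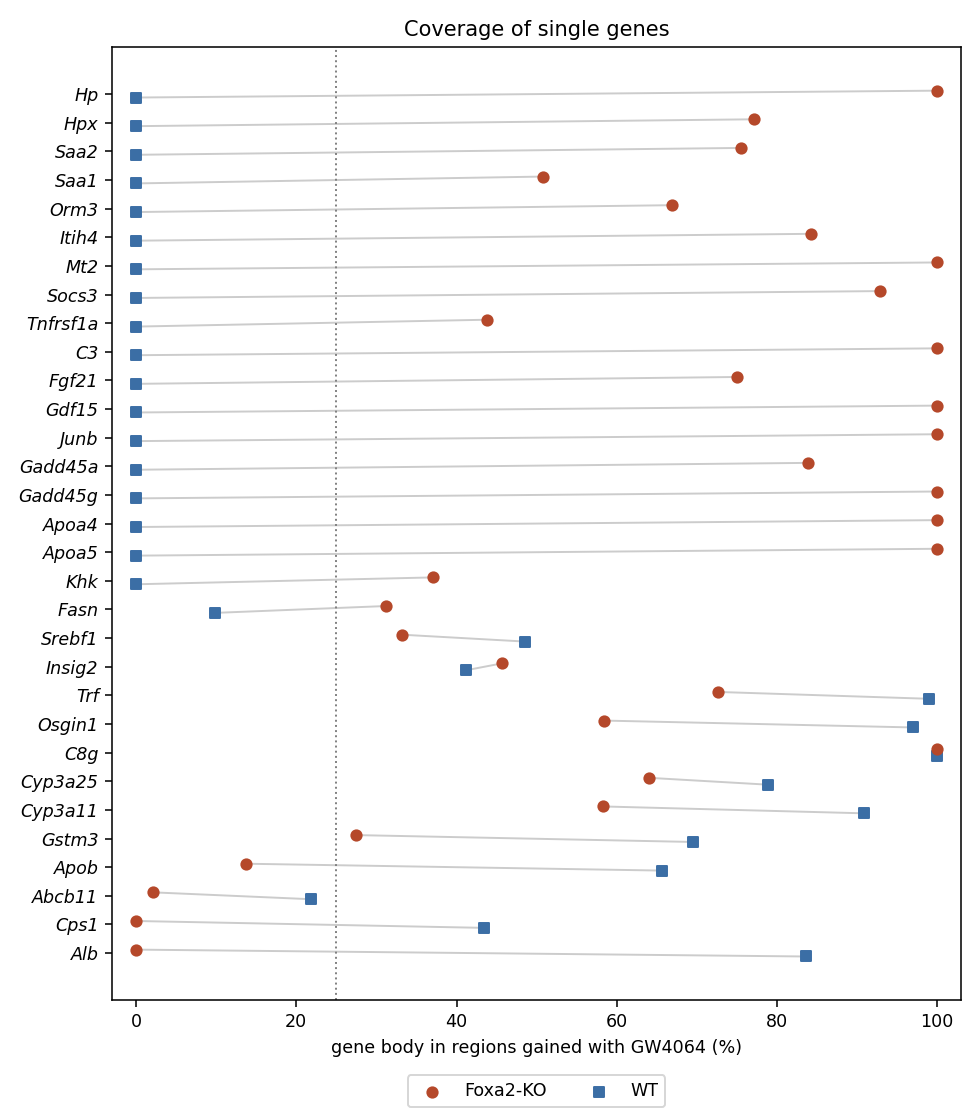
Percent of each gene body inside regions gained with GW4064, with Foxa2-KO (circles) above WT (squares) for each gene and a dotted line at 25%. Hp through Khk lie at 37.1% or more in Foxa2-KO and at 0% in WT, and Cps1 and Alb lie at 0% in Foxa2-KO.

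Bile acid genes, the best known targets of FXR, were not among the genes covered over 25% in Foxa2-KO liver, where all genes stood at 1.66%. With GW4064, none of 16 genes of bile acid synthesis and conjugation passed 25% in either genotype. None of 15 bile acid transport genes did in Foxa2-KO liver, against 1 (Abcc2, at 25.6%) in WT liver. With the LXR agonists in WT liver, 5 of the 16 passed with GW3965 and 3 with T09, and of the 15, 0 with GW3965 and 1 with T09. The genes of both lists are long, with median lengths of 26101 bp and 50847 bp, and few genes of such length pass. Counted by any covered base, 8 of the 16 and 11 of the 15 were reached in Foxa2-KO liver, against 48% of all genes. Abcb11 had 2.12% in Foxa2-KO liver and 21.8% in WT liver. Cyp7a1, whose product starts the classic route of bile acid synthesis, Nr0b2 and Slc51b had no covered base with GW4064 in either genotype. Nr1h4 had 1.02% in Foxa2-KO liver and 0.145% in WT liver. In the list of 25 FXR targets, 3 passed in each genotype with GW4064 and 2 were common. In WT liver 4 of the 25 passed with GW3965 and 4 with T09, so this count was not particular to the FXR agonist. Osgin1 had 58.4% in Foxa2-KO liver and 96.9% in WT liver with GW4064, and 88.1% with GW3965 and 49.1% with T09 in WT liver. Insig2 had 45.7% in Foxa2-KO liver and 41.2% in WT liver with GW4064, and 11.6% with GW3965 and 0% with T09 in WT liver. C3 was the third in Foxa2-KO liver. Foxa1, Foxa2 and Foxa3 had no covered base with GW4064 in either genotype. These lists hold gains only, so a gene at 0% may have been accessible already with vehicle, a level that was not analysed here.

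Several lists of hepatocyte genes outside inflammation had smaller counts in Foxa2-KO liver than in WT liver, and these differences could not be tested. Of 24 hepatocyte identity genes, 3 passed in Foxa2-KO liver, Hpx and Trf among them, and 4 in WT liver, with Trf in common. Transferrin (Trf) had 72.6% in Foxa2-KO liver and 99.0% in WT liver. Albumin (Alb) had 0% in Foxa2-KO liver and 83.6% in WT liver, and Apob, the backbone of very low density lipoprotein, had 13.8% and 65.7%. Of 8 urea cycle genes, 0 passed in Foxa2-KO liver and 2 in WT liver, Cps1 and Ass1, the first with 43.4% in WT liver and 0% in Foxa2-KO liver. Fatty acid oxidation genes passed in 0 of 33 cases in Foxa2-KO liver and 2 of 33 in WT liver. In the list of gluconeogenesis and amino acid breakdown, Sds, Agxt and Sdsl were the 3 of 20 genes covered in WT liver, each at 0% in Foxa2-KO liver. Khk, which phosphorylates fructose, was the single covered gene of 13 in the glycolysis and glycogen list (37.1% in Foxa2-KO liver, 0% in WT liver), and it was lost with regions of q 0.01 or less. In the iron handling list Trf, Hp and Hpx were the 3 of 13 in Foxa2-KO liver, against 4 of 13 in WT liver. None of 20 clock genes and none of 13 methionine genes passed in either genotype.

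Lipid genes were reached at a few members. In the list of LXR targets and fatty acid synthesis, 2 of 26 passed in each genotype, and 0 of 26 did in Foxa2-KO liver with regions of q 0.01 or less. Srebf1, the lipogenic transcription factor, had 33.1% in Foxa2-KO liver and 48.5% in WT liver, and Fasn (fatty acid synthase) had 31.2% and 9.79% in the same order. Thrsp, a lipogenic nuclear protein, had 0% in Foxa2-KO liver and 91.5% in WT liver. Of 18 lipoprotein genes, Apoa4 and Apoa5 were covered whole in Foxa2-KO liver, with deposited folds of 1.16 and 1.11, and both had 0% in WT liver. Their neighbours Apoa1 and Apoc3 in the same cluster had no covered base in either genotype. Nr1h2, which encodes LXR beta, was the 1 covered gene of 22 nuclear receptors in Foxa2-KO liver (29.9%, against 1.31% in WT liver), and the call was lost with regions of q 0.01 or less. In WT liver Rxrb, which encodes the retinoid X receptor beta, was the 1 of 22 (0% in Foxa2-KO liver, 75.1% in WT liver).

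Gene families outside these lists stood near the share of all genes, with a few exceptions that were not tested. Cytosolic ribosomal proteins had 10 of 81 genes covered in Foxa2-KO liver (12.3%) and 8 of 81 in WT liver, among them Rpl35 at 89.0% and Rpl38 at 81.7% in Foxa2-KO liver. Their median length was 3175 bp, in the length class in which 5.59% of all genes were covered in Foxa2-KO liver. With T09 and GW3965 in WT liver, 11 and 3 of the 81 were covered. Mitochondrial ribosomal proteins had 0 of 78 in Foxa2-KO liver and 4 in WT liver. Cytochromes P450 had 2 of 98 (Cyp3a25 and Cyp3a11) in Foxa2-KO liver and 6 in WT liver. Glutathione transferases had 1 of 22 in Foxa2-KO liver, Gstm3 at 27.5%, and 7 in WT liver. Gstm1 had 12.3% in Foxa2-KO liver and 95.3% in WT liver, and Gstm2 had 0% and 50.7%. Solute carriers had 8 of 375 (2.13%) in Foxa2-KO liver and 13 in WT liver, and zinc finger proteins of the Zfp series had 5 of 397 (1.26%) and 6. Serpins, UDP-glucuronosyltransferases, sulfotransferases, ABC transporters, carboxylesterases and proteasome subunits had none in Foxa2-KO liver. Families that liver does not use were not free of covered genes, with 14 of 1110 olfactory receptors (1.26%) in Foxa2-KO liver and 15 in WT liver. Vomeronasal receptors had 0 of 353, and the 22 major urinary protein genes, near-identical copies abundantly used by liver, had no covered base.

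A list of gains does not show which markers were accessible already, so the liver label could be checked by gains alone. Of the 24 hepatocyte identity genes, 6 (25%) had a covered base in Foxa2-KO liver, against 48% of all genes there, and 9 had one in WT liver. By the same count in Foxa2-KO liver, 9 of 12 neuron, 8 of 12 stellate cell, 8 of 12 sinusoidal endothelial, 7 of 10 cholangiocyte, 6 of 12 muscle, 4 of 12 Kupffer cell and 1 of 12 lymphocyte markers had a covered base. Hepatocyte genes thus did not stand out by this count, but a longer gene has more bases that can be covered. Median gene lengths were 9410 bp for hepatocyte identity, 10546 bp for cholangiocyte, 27404 bp for stellate cell and 50688 bp for neuron markers. The counts of different cell types are therefore not on 1 scale. Of the 10 to 12 markers each of Kupffer cells, stellate cells, sinusoidal endothelium, cholangiocytes, lymphocytes, neurons and muscle, none passed 25% in either genotype with GW4064. The highest were Cd68, of macrophages, at 22.5% and Sox9, of cholangiocytes, at 16.2% in Foxa2-KO liver, both 0% in WT liver. Their part in the covered genes was not tested. The Kupffer cell markers Clec4f, Vsig4, Cd5l, Adgre1, C1qa, C1qb, C1qc and Lyz2 had no covered base in Foxa2-KO liver. Pericentral hepatocyte genes had 0 of 14 in either genotype, and periportal genes had 1 of 14 in Foxa2-KO liver (Apoa4) and 4 of 14 in WT liver.

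The Foxa2-KO and WT lists overlapped little by number and more among wide regions. Of the 82561 Foxa2-KO regions 3214 (3.89%) overlapped a WT GW4064 region by at least 1 base, and of the 60528 WT regions 3224 (5.33%) overlapped a Foxa2-KO region. By length the common part was 1675 kb, or 8.65% of the Foxa2-KO length and 8.07% of the WT length. The share was 0.696% for Foxa2-KO regions under 50 bp, 23.1% between 1000 and 2000 bp and 39.0% (30 of 77) at 5000 bp or more. A wider region has more bases that can be shared, so part of this rise is built into the measure. The share to be met by position alone was not computed. Among the first 100 Foxa2-KO regions 43 overlapped a WT GW4064 region, while 23 overlapped a T09 region and 18 a GW3965 region. Over the whole list those shares were 3.15% for T09 and 2.45% for GW3965. The first 100 regions were also wider, with a median of 1774 bp against 132 bp in the whole list. Of the 364 genes covered in Foxa2-KO liver, 79 (21.7%) were also covered in WT liver, which is 18.6% of the 424 there. The regions left 214 of the 364 (58.8%) without a covered base in WT liver, and 263 of the 424 WT genes (62.0%) without one in Foxa2-KO liver. Among all protein-coding genes, only 43.8% had a covered base in WT liver with GW4064 and 48% in Foxa2-KO liver. Lacking one in the other genotype was thus common among all genes too. With T09 and GW3965 in WT liver, 42 and 31 of the 364 were covered.

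Few ChIP peaks of FXR or Foxa2 lay in the gained regions. Of 3901 FXR peaks of Foxa2-KO liver with GW4064, 82 (2.10%) overlapped a Foxa2-KO region, and of 4284 with vehicle, 63 (1.47%) did. Of 22705 FXR peaks of WT liver with GW4064, 265 (1.17%) overlapped a Foxa2-KO region and 349 (1.54%) a WT region. Among the first 500 of these WT FXR peaks in file order, which may not be the order of q, 37 (7.4%) lay on Foxa2-KO regions and 96 (19.2%) on WT regions. The FXR peaks of Foxa2-KO liver with GW4064 stood closer together, with 4.2% of the first 500 on Foxa2-KO regions and 4% on WT regions, and 2.10% and 1.41% over all peaks. Foxa2 peaks, measured in WT liver, overlapped Foxa2-KO regions in 584 of 22666 cases (2.58%) with GW4064 and in 191 of 7306 (2.61%) with vehicle. In WT regions the shares were 5.84% and 8.06%. For comparison, the Foxa2-KO regions take up 0.711% of the chromosomes' extent and the WT regions 0.762%. These are shares of bases, while a peak was counted at 1 shared base. The share of peaks to be met by position alone is therefore higher than these values, and it was not computed. Of the 2766 Foxa2-KO regions of 1 kb or wider, 283 (10.2%) held a Foxa2 peak and 75 (2.71%) an FXR peak of WT liver with GW4064. The peak lists differ in number and width (median 40 bp for FXR in Foxa2-KO liver with GW4064, 58 bp in WT liver, 124 bp for Foxa2), so shares of different peak lists are not on 1 scale.

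**Figure D5:**
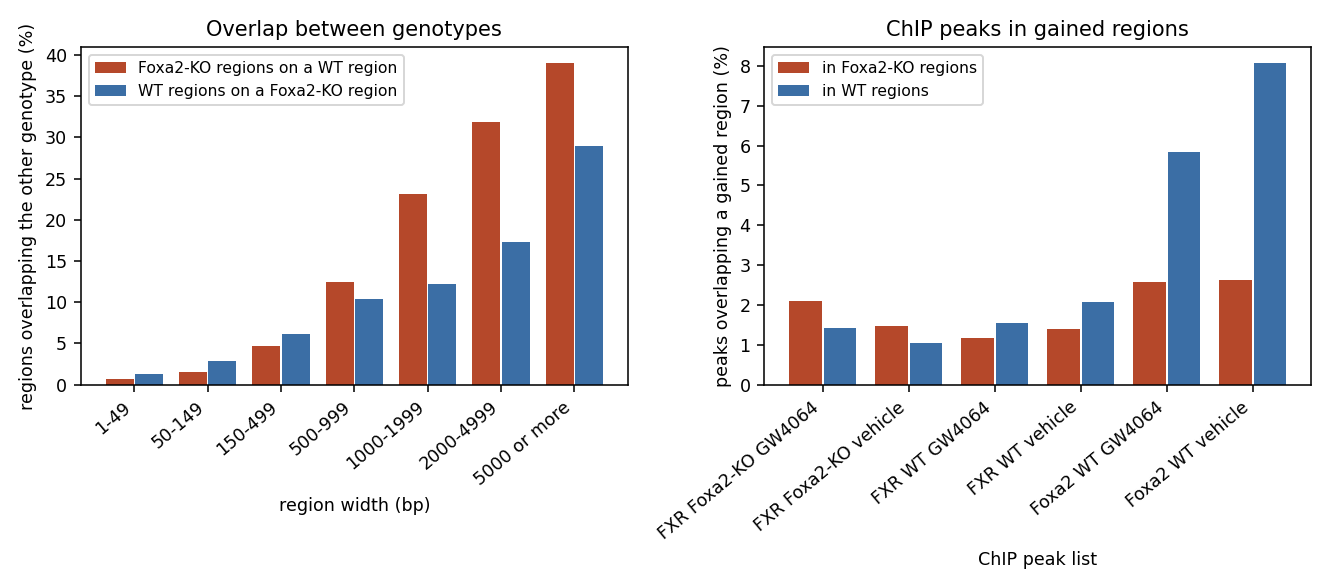
Left, percent of Foxa2-KO regions overlapping a WT region and of WT regions overlapping a Foxa2-KO region by at least 1 base, by region width. Right, percent of the peaks of each FXR or Foxa2 ChIP list overlapping regions gained with GW4064 in Foxa2-KO or WT liver. Overlap rises to 39.0% of the widest Foxa2-KO regions, and Foxa2 peaks with GW4064 stand at 2.58% in Foxa2-KO regions and 5.84% in WT regions.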

How the data were processed

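Regions were taken from the deposited ATAC-seq list of GW4064 over vehicle in Foxa2-KO liver, with 3 other ATAC lists, 4 FXR and 2 Foxa2 ChIP lists beside it. Per the labels and the series text, PeakSeq called ligand over vehicle for ATAC (stated for WT) and sample over input for ChIP. BWA and mm10 are named in the submitters' processing notes, and versions, read filters and how replicates were joined are not given in the sources used here. The protocol text of the ATAC samples describes end repair, adapter ligation and gel selection of fragments and names no transposase. The fold (ratio to vehicle) of each region is the authors' own, as deposited, and was used only to describe and filter. The q-value of each region is deposited by the authors, up to 0.05, and orders the list. The -log10 of p is deposited by the authors too and broke ties only in choosing named genes. Entries were numbered in the order of the file. The WT GW4064 ATAC list, the WT FXR lists and the Foxa2 lists were used by position alone, and whether their order follows q is unknown. The samples of a list have no columns of their own, so p-values over samples could not be had, replicate numbers pair nothing, and nothing measures the spread between animals.

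From the positions, the bases of each of 21883 RefSeq protein-coding genes (GRCm38.p6, chromosomes 1 to 19, X and Y) inside a list's merged regions were counted, with a limit of 25% of the gene body. The counting was tested on simulated regions. Start sites came from the RefSeq promoter table, which matched 17491 genes (79.9%). Regions overlapped when they shared at least 1 base. The chromosomes' extent (2722 Mb) ends at the last annotated gene or listed region. Symbols were matched to 30 gene lists and 25 families by symbol pattern, all members found. Named genes hold or neighbour the first 10 and the 10 widest regions, hold most covered bases (15 genes), are list members over 25% (up to 8), or are Foxa1, Foxa2, Foxa3, Nr1h4, Nr0b2, Abcb11, Slc51b, Osgin1 and Cyp7a1. List members under the limit, members covered only in WT liver, family members, Tacc2, Mfsd2a, the blocks, the 8 printed windows and the motifs were chosen after their values were seen. The members and lists were chosen with earlier results of these data known. Alternatives were a q of 0.01 or less, a fold of 2 or more, a width of 1 kb or more and limits of 10%, 50% and any base. Further ones were 50% overlap, both lists at the shorter length, and peak centres. The 37 RNA-seq samples and the LXR and PPAR lists were not used here, and some list members are not reported here. Python 3.11.15, numpy 2.4.6, pandas 2.3.3 and matplotlib 3.10.9 were used.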

Additional observations from a re-analysis of the deposited data

How the results depend on the processing

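With a q of 0.01 or less, 12946 regions remained in the list and 137 genes passed 25% cover. Of the Foxa2-KO regions kept, 814 overlapped a WT region. FXR peaks inside regions then numbered 23 (Foxa2-KO, GW4064), 16 (Foxa2-KO, vehicle), 68 (WT, GW4064) and 36 (WT, vehicle), and Foxa2 peaks 180 with GW4064 and 63 with vehicle. With a fold of 2 or more, 15 genes passed, 2 of them list members, and 1507 regions overlapped WT. Wide regions have low folds, so that limit removes them by its construction. At 1 kb or wider, 2766 regions remained and 715 overlapped WT. Limits of 10%, 50% and any covered base gave 905, 158 and 10508 genes. For members of any list the main count was 27, with 42 at 10% and 234 with any base. Asking for 50% of the Foxa2-KO region to be covered left 2112 overlaps. For these totals the other alternatives, peak centres and lists at equal length included, stayed within 1.5 times of the main counts. Of 30 single lists, 5 moved beyond 1.5 times with the q limit, 14 with the fold limit, 8 at 10%, 6 at 50% and 29 with any base. No paired analysis was possible because the samples of each arm enter 1 deposited list. For the same reason no replicate could be left out. Depth is unknown, so absence from the list does not show absence of a gain.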

Other observations

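Runs of gained regions at most 5 kb apart, a grouping chosen after seeing the data, gave 64635 blocks in Foxa2-KO liver. The block with most bases lay at Egfr, with 39.0 kb in 20 regions, and 0% of its span was in WT GW4064 regions and 78.9% in WT T09 regions. Tacc2, a centrosome-associated gene, held 22.3 kb in 46 regions, with 0.362% of the span in WT GW4064 regions and 0.267% in T09 regions. Zfpm1 held 33.9 kb in 22 regions, with 19.7% of the span in WT GW4064 regions. Mfsd2a, a lysophospholipid transporter, was covered over 66.6% in Foxa2-KO liver with GW4064, 8.36% in WT liver with GW4064 and 100% in WT liver with T09. C3, Apoa5, Apoa4, Xirp1 and Gadd45g, at 0% in WT liver with GW4064, had 88.5%, 100%, 67.6%, 87.5% and 100% in WT liver with T09. Gdf15 had 96.8% in WT liver with GW3965, the ligand of LXR. Cyp7a1, Foxa1 and Nr0b2, at 0% with GW4064 in both genotypes, had 68.5%, 70.9% and 38.6% in WT liver with GW3965. Hpx, Saa2, Saa1, Mt2, Orm3 and Socs3 had 0% in all 3 WT lists.

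The X chromosome held 13.9 gained regions per Mb in Foxa2-KO liver and 17.4 in WT liver, while autosomes ran between 26.4 (chromosome 19) and 39.3 (chromosome 2) in Foxa2-KO liver and between 20.9 and 25.04 in WT liver. Among regions of 500 bp or wider in Foxa2-KO liver, the 10 with the largest deposited folds had 4.17 to 8.86. The highest lay on Y, 340612 bp from the nearest protein-coding gene (Gm20738), with a q of 0.0466 and a place as late as entry 75115. The next lay on X, 469955 bp from H2al1n (deposited fold 5.44, q 0.00334). Tacc2 held another, with a deposited fold of 4.43.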
